A study of Drosophila melanogaster with 16 samples.

Results

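The 10 genes described here are the insulin-like peptides Ilp2, Ilp3, Ilp5, Ilp6, Ilp7 and Ilp8, the insulin receptor InR, the secreted binding proteins ImpL2 and Sdr, and the receptor substrate chico, of 17753 genes counted in the series. They were taken as a family and selected on the data: the family was picked because Ilp2, Ilp3 and Ilp5 had the largest enrichment in male TRAP. Male TRAP set against male total mRNA, for all 10 genes, and every difference between the sexes for Ilp2, Ilp3 and Ilp5, are therefore given as a description without a test. The other members were tested between the sexes, in fits that share male libraries with the choice. TRAP (translating ribosome affinity purification) recovers mRNA through ribosomes marked with a GFP fusion of the ribosomal protein RpL10A. The flies were Drosophila melanogaster of genotype w/(w or Y); UAS-Gal4/UAS-GFP::RpL10A; fru P1-Gal4/+, in all groups, so that the tag was made in cells in which Gal4 from the P1 promoter of fruitless (fru) was active, with UAS-Gal4 adding to the driver. Heads of sex-sorted adults aged 10 to 12 days, pooled for each library, gave 4 groups of 4 libraries, namely TRAP and total mRNA from males and TRAP and total mRNA from females. Total mRNA came from the same kind of head lysate before the pull-down and so holds all cells of the head. In such bulk samples fewer cells of a type and less RNA per cell cannot be told apart.

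Insulin-like peptides of the fly are secreted hormones that couple feeding to growth, metabolism, reproduction and lifespan. In the adult brain Ilp2, Ilp3 and Ilp5 are made mainly by the insulin-producing cells, a cluster of median neurosecretory neurons, whereas Ilp6 is made chiefly by the fat body. The peptides bind InR, a receptor tyrosine kinase, which signals through the substrate Chico to phosphoinositide 3-kinase and Akt and thereby holds the transcription factor FOXO out of the nucleus. ImpL2 and Sdr are secreted proteins that bind the peptides and dampen the signal. Ilp7 and Ilp8 resemble relaxins, and Ilp8 acts through the receptor Lgr3.

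The counts of a library summed to between 15353672 and 25419045. Each gene was followed through the exon with the highest mean level, in normalised CPM (counts scaled to a fixed library size with TMM factors), and an exon was called at a false discovery rate (FDR) under 0.2, the threshold of the study. The pull-down was checked with fru and RpL10Ab. Both were called higher in TRAP in both sexes, beside 38.2% of all genes in males and 52.3% in females. All 8 glia markers and all 9 photoreceptor markers were called lower in TRAP in both sexes, and 8 of 10 neuron markers in males and 10 of 10 in females were called higher. The log2 change of fru was 0.90 in males and 1.33 in females, beside medians of 0.715 and 1.37 for the neuron markers. That of RpL10Ab was 0.88 in males and 0.55 in females. In females fru therefore does not stand out from the neuron markers. The libraries separated by the labelled sex: roX1, an RNA of the male dosage compensation complex, lay between 123 and 766 CPM in the 8 male libraries and between 4.95 and 15.6 CPM in the 8 female libraries. Such a check cannot show a small share of heads of the other sex. The yolk protein gene Yp1 was uneven in males, between 4.78 and 482 CPM in male TRAP with the highest value in replicate 5 and between 11.7 and 382 CPM in male total mRNA, against at least 5553 CPM in every female library. Whether some female heads were among the sorted males was not tested. Female total mRNA replicate 5 stood apart for the brain peptides. It held 4.20 times the mean of the other 3 female total mRNA libraries for Ilp2, 2.47 times for Ilp3 and 2.44 times for Ilp5, while its ratio was 1.04 for fru. Results that rest on this library are given with and without it.

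The genes lie at these positions on dm6. Ilp2 (FBgn0036046) and Ilp3 (FBgn0044050) are neighbours on 3L. The followed exon of Ilp2 spans chr3L:9800000-9800440 on the plus strand and that of Ilp3 spans chr3L:9801298-9801802 on the minus strand. The followed exon of Ilp5 (FBgn0044048) lies close by, at chr3L:9823349-9823639 on the minus strand. Each of these 3 exons holds the end of the coding sequence and the 3′ UTR. The gene CG32052 spans those of Ilp2, on the same strand, and Ilp3, on the opposite strand. CG43897 spans that of Ilp5 on the opposite strand. The annotation places no exon of CG32052 or CG43897 over them. Ilp6 (FBgn0044047) was followed through a 5′ UTR exon at chrX:2333320-2334658, inside the oppositely transcribed gene Raf. ImpL2 (FBgn0001257) was followed through 5′ UTR and coding sequence at chr3L:4224927-4225706, where the annotation places an exon of CG46460 on the same strand. The last exons of InR (FBgn0283499, chr3R:21570248-21575916), chico (FBgn0024248, chr2L:10242512-10244158) and Sdr (FBgn0038279, chr3R:14921368-14923083) hold coding sequence and 3′ UTR, and an antisense RNA, asRNA:CR44995, overlaps the exon of chico. The followed exons of Ilp7 (FBgn0044046, chrX:3668535-3668845) and Ilp8 (FBgn0036690, chr3L:17029812-17030284) overlap exons of Parg and CG7730, each on the opposite strand. Counting did not use strand, and strand would not separate transcripts of the same strand. Reads of such overlapping transcripts therefore cannot be told apart from those of the gene.

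Ilp2, the most abundant of the brain peptides, was present at 1046, 1288, 1622 and 1061 CPM in male TRAP replicates 1, 2, 4 and 5, against 26.1, 73.6, 57.6 and 33.2 CPM in male total mRNA replicates 1, 2, 3 and 4. Every TRAP library was above every total mRNA library, and total mRNA replicates 2 and 3 were the higher ones. The log2 change was 4.72 ± 0.34 (SE), or 26.3-fold. Ilp3 had 94.2, 118, 135 and 96.6 CPM in male TRAP, against 2.86, 6.15, 5.45 and 2.36 CPM in male total mRNA. As for Ilp2, total mRNA replicates 2 and 3 were the higher ones, and the log2 change was 4.73 ± 0.31 (SE). Ilp5 had 41.5, 50.0, 53.8 and 23.4 CPM in male TRAP, against 1.45, 3.01, 1.70 and 1.16 CPM in male total mRNA, a log2 change of 4.53 ± 0.33 (SE). Replicate 5 was the lowest TRAP library for Ilp5 and also the library with the most Yp1. Of the 8 members whose followed exon passed the filter on low counts in males, 3 were called higher, beside 38.2% of all genes, and 2 were called lower, beside 30.5% of all genes. The exon of Ilp5 passed this filter through all 4 male TRAP libraries, where it was high, and only 1 male total mRNA library. The family was picked for this contrast, so nothing is read from these counts.

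**Figure D1:**
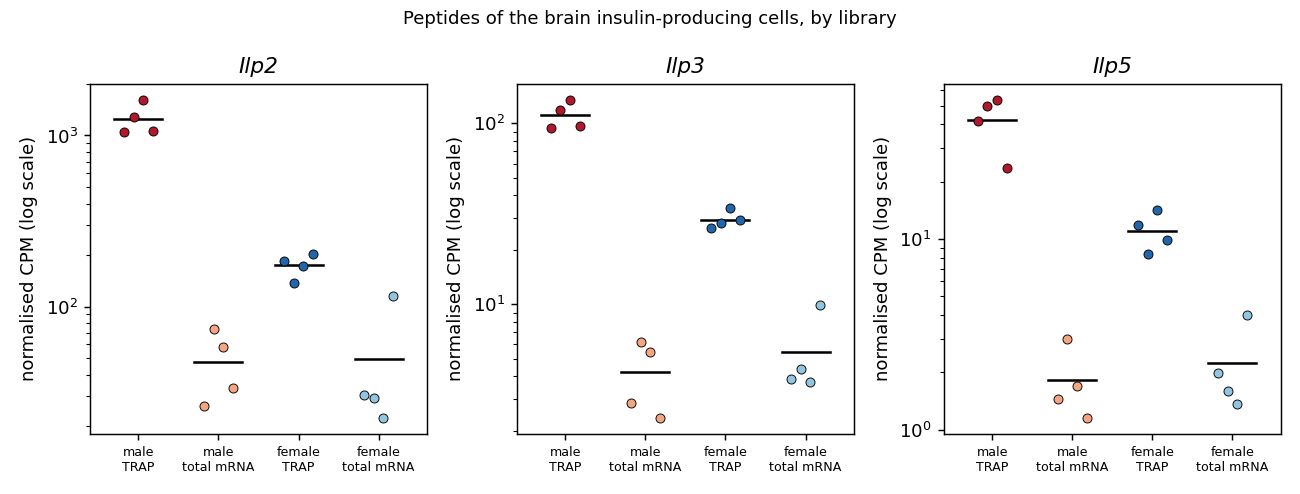
Normalised CPM (log axis) of the followed exons of Ilp2, Ilp3 and Ilp5 in each of the 16 libraries. Points are libraries and lines are group means. The 4 male TRAP libraries lie above all others for each gene, female TRAP lies between them and total mRNA, and female total mRNA replicate 5 is the raised point among the female total mRNA libraries.

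In females the same peptides were enriched on the tagged ribosomes, by a smaller factor. Ilp2 had 184, 137, 172 and 202 CPM in female TRAP replicates 2, 3, 4 and 5, against 30.6, 29.2, 22.3 and 114.9 CPM in female total mRNA replicates 2, 3, 4 and 5. The groups did not overlap, and the log2 change was 1.92 ± 0.43 (SE, FDR = 2.6e-05, edgeR exact test). Ilp3 had 26.5, 27.97, 34.0 and 29.2 CPM in female TRAP, against 3.87, 4.41, 3.73 and 9.88 CPM in female total mRNA. It was called higher with a log2 change of 2.53 ± 0.28 (SE, FDR = 3.83e-17, edgeR exact test), again without overlap. Ilp5 had 11.8, 8.37, 14.2 and 9.91 CPM in female TRAP, against 1.98, 1.59, 1.37 and 4.01 CPM in female total mRNA, a log2 change of 2.42 ± 0.31 (SE), and its groups did not overlap. Its exon passed the filter on low counts through all 4 TRAP libraries and only 1 total mRNA library, replicate 5, so that no test is given from that fit. With no filter, in a fit over all exon entries, the log2 change was 2.61 (FDR = 8.17e-17, edgeR exact test). Without female total mRNA replicate 5 the log2 change was 2.77 for Ilp2 and 2.97 for Ilp3, and Ilp5 no longer passed the filter. Over the 17 alternatives the FDR of Ilp2 lay between 2.08e-37 and 0.00215. The first exon of Ilp2 had a log2 change of 1.45 ± 0.40 (SE, FDR = 0.000877, edgeR exact test), although its groups overlapped. Counted over followed exons, 4 of the 7 members tested in females were called higher (Ilp2, Ilp3, Ilp5 and chico), beside 52.3% of all genes, and 2 were called lower (Ilp6 and ImpL2), beside 31.4% of all genes. Counted over 14 distinct exon intervals of the members, 6 were called higher, beside 40.7% of all exon entries, and 7 lower, beside 36.9%. The exon of Ilp5 and the first exon of Ilp3 stand in these counts although they passed the filter through TRAP, where they were high, with 1 total mRNA library each.

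The level on ribosomes was higher in males than in females for each of the brain peptides. Male TRAP averaged 1254 ± 269 CPM and female TRAP 174 ± 27.4 CPM for Ilp2 (mean ± SD, n = 4 each), with a log2 change of 2.90 ± 0.20 (SE). For Ilp3 the averages were 111 ± 19.5 CPM in male TRAP and 29.4 ± 3.22 CPM in female TRAP (mean ± SD, n = 4 each), with a log2 change of 1.97 ± 0.15 (SE). Ilp5 averaged 42.2 ± 13.5 CPM in male TRAP and 11.1 ± 2.53 CPM in female TRAP (mean ± SD, n = 4 each), with a log2 change of 1.97 ± 0.24 (SE). The lowest male TRAP library was above the highest female TRAP library for each of the 3 peptides.

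Total mRNA of the 2 sexes overlapped for these peptides. Ilp2 averaged 47.6 ± 22.0 CPM in male total mRNA and 49.2 ± 43.9 CPM in female total mRNA (mean ± SD, n = 4 each), and its log2 change was 0.00 ± 0.48 (SE). Female total mRNA replicate 5 decides this value: without it the log2 change of Ilp2 was 0.87. For Ilp3 the log2 change was -0.32 ± 0.37 (SE), and 0.14 without that library. Ilp5 was below the filter in this comparison, at 1.83 ± 0.82 CPM in male total mRNA and 2.24 ± 1.21 CPM in female total mRNA (mean ± SD, n = 4 each). The TRAP effect, as log2 change in males minus that in females, was 2.89 ± 0.57 for Ilp2, 2.30 ± 0.41 for Ilp3 and 2.21 ± 0.47 for Ilp5 (SE, quasi-likelihood fit over the 16 libraries). Without female total mRNA replicate 5 these differences were 2.05, 1.86 and 1.79. The fit called 3 of 7 members higher in this difference, beside 0.0835% of all genes. These 3 are the peptides that the family was picked for. The exon of Ilp5 was above the CPM limit of the filter in all 4 TRAP libraries of each sex and in only 1 total mRNA library of each.

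The proportions of the brain peptides to each other were compared within each library, where scaling plays no part. Ilp3 reached 8.92 ± 0.38 counts per 100 Ilp2 counts in male TRAP, against 8.96 ± 1.63 in male total mRNA (mean ± SD, n = 4 each). In females the ratio was 17.2 ± 3.26 in TRAP, against 13.3 ± 3.53 in total mRNA (mean ± SD, n = 4 each), and the groups overlapped (exact two-sided permutation p = 0.2, adjusted p = 0.514 over 8 ratio tests). The female TRAP libraries all lay above the male ones, from 14.4 to 20.4 in females beside 8.35 to 9.20 in males. For Ilp5 the ratio was 3.34 ± 0.81 in male TRAP, against 4.02 ± 1.12 in male total mRNA (mean ± SD, n = 4 each). Female TRAP had 6.41 ± 1.39 and female total mRNA 5.39 ± 1.34 Ilp5 counts per 100 Ilp2 counts (SD, n = 4 each; exact two-sided permutation p = 0.429, adjusted p = 0.572 over the same tests). Female total mRNA replicate 5, in which Ilp2 was raised most, had the lowest ratio of its group for both peptides, 8.60 for Ilp3 and 3.49 for Ilp5. The last exon held 89.3% of the counts of Ilp2 in female TRAP, against 85.0% in female total mRNA. For Ilp3 it held 87.8% in female TRAP, against 85.9% in female total mRNA, and for Ilp5 73.4% in female TRAP, against 70.2% in female total mRNA. These shares overlapped between the fractions (exact two-sided permutation, adjusted p = 0.343, 0.629 and 0.514 for Ilp2, Ilp3 and Ilp5 over the same tests). With the female libraries paired by replicate number the 8 ratio tests gave p between 0.125, the smallest that 4 pairs allow, and 0.75 (exact paired permutation).

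**Figure D2:**
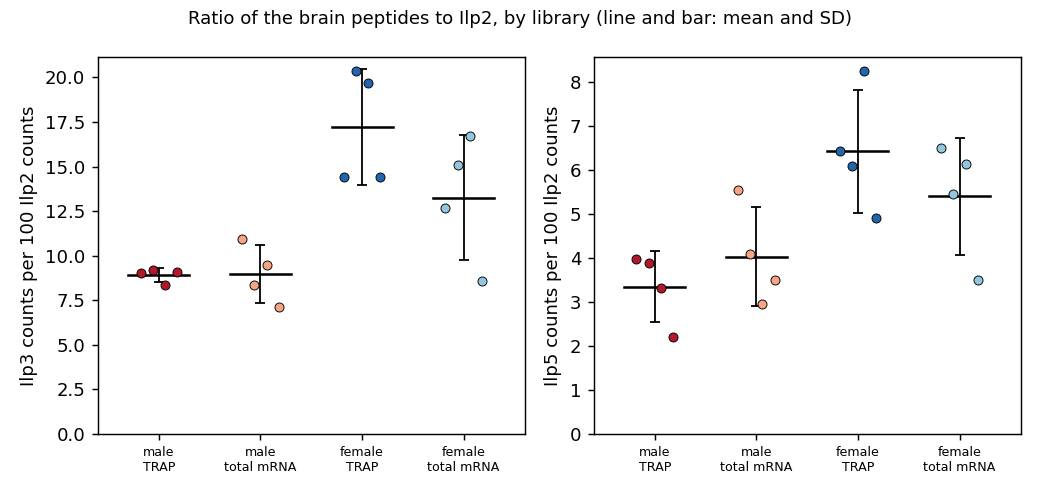
Counts of Ilp3 and of Ilp5 per 100 counts of Ilp2 in each of the 16 libraries, with the mean and SD of each group. Male TRAP and male total mRNA lie at similar ratios, and the 4 female TRAP libraries lie above the 4 male TRAP libraries for both peptides.

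Over the 16 libraries Ilp2, Ilp3 and Ilp5 varied together, with Pearson correlations of log2 CPM between 0.975 and 0.989. Points in these correlations share libraries and fractions, so they are descriptions. Among 7129 genes with a mean of at least 5 CPM, the genes with the pattern most like the mean of the 3 peptides were Capa (r = 0.993), CG8401 (0.979), CG12239 (0.975), Dh44 (0.974) and Hug (0.969). Capa and Hug encode precursors of pyrokinin-type neuropeptides, and Dh44 encodes a diuretic hormone of median neurosecretory cells. Capa averaged 268 ± 51.9 CPM in male TRAP, against 18.7 ± 5.51 CPM in male total mRNA (mean ± SD, n = 4 each). In females it averaged 69.7 ± 16.7 CPM in TRAP, against 16.8 ± 9.08 CPM in total mRNA. Hug averaged 624 ± 98.7 CPM in male TRAP, against 27.1 ± 13.2 CPM in male total mRNA (mean ± SD, n = 4 each). In females Hug averaged 291 ± 112 CPM in TRAP, against 26.7 ± 18.4 CPM in total mRNA (mean ± SD, n = 4 each). These genes were also raised in female total mRNA replicate 5, by 3.07 times for Hug, 2.48 times for Capa and 1.80 times for Dh44 over the mean of the other 3 libraries. What set this library apart was not tested.

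Ilp6, the peptide of the fat body, went the other way from the brain peptides. It had 7.91, 8.28, 5.96 and 11.7 CPM in male TRAP replicates 1, 2, 4 and 5, against 17.5, 21.2, 32.8 and 24.1 CPM in male total mRNA. No male TRAP library reached a total mRNA library, and the log2 change was -1.50 ± 0.24 (SE). In females it had 5.43, 12.6, 12.1 and 13.2 CPM in TRAP, against 24.8, 28.4, 35.5 and 31.5 CPM in total mRNA. Ilp6 was called lower in female TRAP, with a log2 change of -1.38 ± 0.23 (SE, FDR = 3.49e-08, edgeR exact test), and TRAP replicate 2 was the lowest library. Of its 6 exon intervals 3 passed the filter, and all 3 were called lower in females, with log2 changes from -1.67 to -1.38. Between the sexes Ilp6 was not called in TRAP (-0.30 ± 0.27, 95% interval from -0.83 to 0.24, FDR = 0.884) or in total mRNA (-0.27 ± 0.19, 95% interval from -0.65 to 0.11, FDR = 0.471), and the groups overlapped in both (SE, edgeR exact test). In total mRNA the call changed without male total mRNA replicate 3, to -0.46 with FDR = 0.0856, where FDR ranged from 0.0834 to 0.951 over the alternatives.

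The fat body markers were also lower in TRAP, but they did not follow Ilp6 in every comparison. Summed over the 10 markers, the level was 1019 to 2433 CPM in male TRAP, against 2489 to 2940 CPM in male total mRNA. In females the sum was 10190 to 18670 CPM in TRAP, against 53040 to 70930 CPM in total mRNA, most of it from the yolk protein genes. None of the 10 was at 0 in any group, and 9 of 9 tested markers were called lower in female TRAP, with a median log2 change of -1.76. In males 6 of 9 were called lower, with a median of -0.88, and the yolk protein genes Yp1 (-0.34), Yp2 (-0.24) and Yp3 (-0.45) were not called. Between the sexes, where Ilp6 was not called, Yp1 was lower in males, at -5.70 in TRAP and -7.44 in total mRNA on the log2 scale, and takeout (to) was higher, at 2.76 in TRAP and 2.95 in total mRNA. Of the 9 tested markers in TRAP, 2 were called higher in males and 3 lower, the yolk protein genes. Like Ilp6, Lsp2 (0.56), Cyp4g1 (0.83), FASN1 (-0.18) and apolpp (-0.55) were not called there. In total mRNA 3 of 9 were called higher in males and 5 lower. The part of fat body RNA in the values of Ilp6 was not tested.

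ImpL2, the secreted antagonist that binds the peptides, was lower in TRAP and differed between the sexes. It had 20.3, 27.4, 17.8 and 25.3 CPM in male TRAP, against 49.2, 59.1, 59.4 and 51.0 CPM in male total mRNA. In females it had 8.39, 13.6, 15.7 and 12.6 CPM in TRAP, against 36.0, 39.1, 47.8 and 38.4 CPM in total mRNA. In neither sex did the fractions overlap. The log2 change of TRAP over total mRNA was -1.27 ± 0.19 in males (SE), and it was -1.58 ± 0.17 in females (SE, FDR = 8.84e-16, edgeR exact test). All 4 tested intervals of ImpL2 were called lower in female TRAP, with log2 changes from -1.67 to -1.09. All 4 overlap exons of CG46460 on the same strand, and chr3L:4224710-4224851 lies inside chr3L:4224006-4224851. The intervals are therefore not independent, and reads of CG46460 cannot be told apart from those of ImpL2.

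Male TRAP exceeded female TRAP for ImpL2, with a log2 change of 0.91 ± 0.20 (SE, FDR = 0.00566, edgeR exact test), and every male TRAP library was above every female one. It was called in all 8 fits that left out a library, and FDR ranged from 2.15e-05 to 0.113 over the alternatives. Of its 4 tested intervals, which are not independent as stated above, 3 were called higher, with log2 changes between 0.64 and 1.15 for the 4. Male total mRNA also exceeded female total mRNA, with a log2 change of 0.50 ± 0.14 (SE, FDR = 0.0247, edgeR exact test), without overlap, and 2 of 4 intervals were called. The TRAP effect on ImpL2 was not called as different between the sexes: the difference of log2 changes, male minus female, was 0.41 ± 0.26 (SE, 95% interval from -0.09 to 0.91, FDR = 0.587, edgeR quasi-likelihood test).

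Counted over the family in male against female TRAP, 4 of the 7 tested members were called higher, beside 1.19% of all genes, and 0 were called lower by the edgeR exact test, beside 1.68% (also 0 at an unadjusted p under 0.05, 0 with the quasi-likelihood test and 0 with DESeq2). The 3 brain peptides were picked with this pattern in view, and ImpL2 is the other. Counted over intervals, 9 of 15 were called higher in male TRAP, beside 1.22% of all exon entries. Of these 9, 2 each belong to Ilp2, Ilp3 and Ilp5, which the family was picked for, and 3 belong to ImpL2. Nothing is read from this count of intervals. In male against female total mRNA, 1 of 6 members was called higher, beside 13.5% of all genes, and 0 lower by the edgeR exact test, beside 10.8% (also 0 at an unadjusted p under 0.05, 0 with the quasi-likelihood test and 0 with DESeq2). That member was ImpL2. Of 12 intervals tested 2 were called higher, both of ImpL2, beside 10.1% of all exon entries. Markers moved in the same comparison: in male total mRNA 7 of 10 neuron markers and 4 of 9 photoreceptor markers were called higher, 6 of 7 tested muscle markers lower, 3 of 9 tested fat body markers higher and 5 lower, and 2 of 8 glia markers higher and 1 lower. In male against female TRAP 2 of 9 tested fat body markers were called higher and 3 lower, 1 of 8 glia markers and 1 of 9 photoreceptor markers higher, and 1 of 7 muscle markers lower, and the median log2 change of the 10 neuron markers was -0.06. Their part in the values of ImpL2 was not tested.

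Sdr, a secreted decoy of the receptor, was scarce. It had 2.07, 1.84, 1.24 and 2.31 CPM in male TRAP, against 2.32, 2.80, 2.48 and 2.20 CPM in male total mRNA, which overlapped (log2 change -0.40 ± 0.26, SE). In females it had 0.60, 1.01, 1.11 and 0.55 CPM in TRAP, against 2.03, 1.86, 2.74 and 2.23 CPM in total mRNA. The female fractions did not overlap, nor did male and female TRAP. Below the filter, Sdr was lower in female TRAP than in female total mRNA by exact two-sided permutation (p = 0.0286, the smallest p that 4 against 4 allows), and higher in male TRAP than in female TRAP with the same p. With the female libraries paired by replicate number, Sdr was lower in TRAP in 4 of 4 pairs and the exact paired permutation gave p = 0.125, the smallest that 4 pairs allow. In total, 9 such permutation tests were run on scarce members, and these p-values are not adjusted. With no filter, which tests all exon entries, the log2 change was -1.14 for female TRAP over female total mRNA (FDR = 0.00304) and 1.18 for male over female TRAP (FDR = 0.073, edgeR exact test). Summed over the exons of each gene, FDR was 1.93e-06 for the female fractions and 0.0102 for male over female TRAP. For Sdr the TRAP effect, male minus female, was 0.999 ± 0.42 with no filter (SE, FDR = 0.641, quasi-likelihood test).

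**Figure D3:**
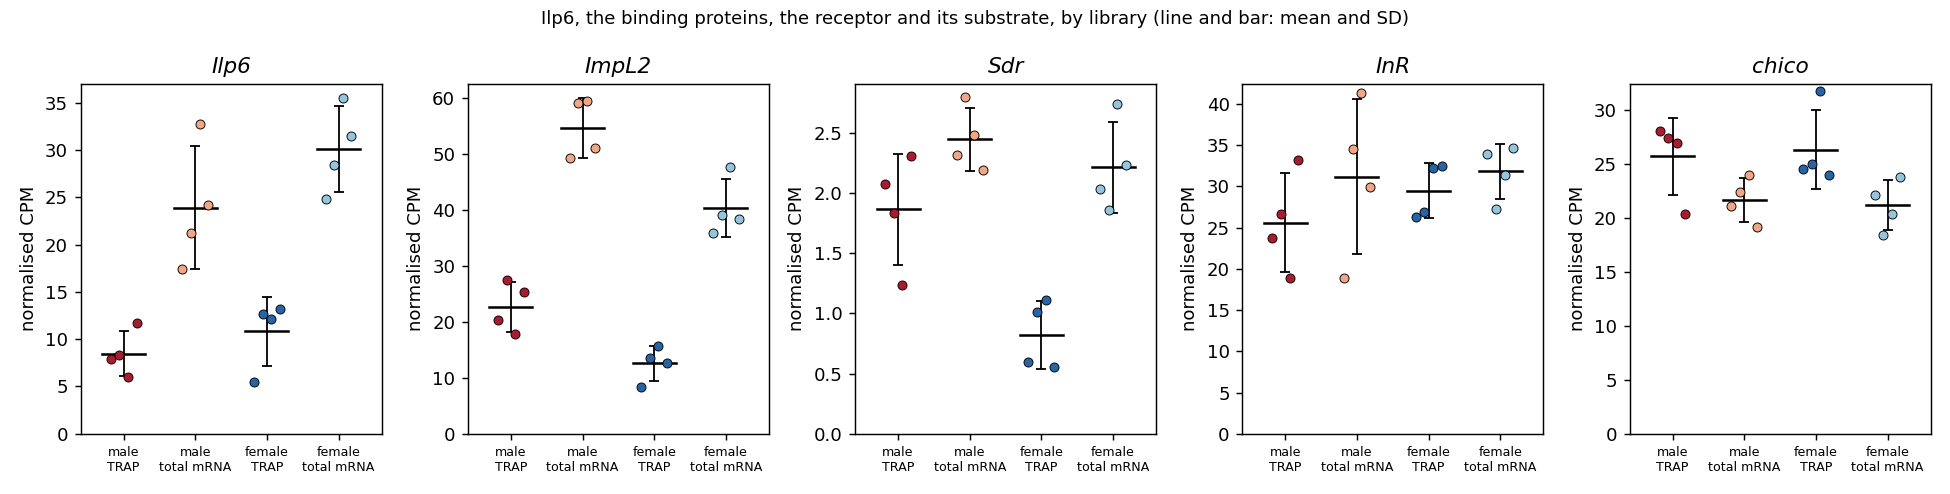
Normalised CPM of the followed exons of Ilp6, ImpL2, Sdr, InR and chico in each of the 16 libraries, with the mean and SD of each group. TRAP lies below total mRNA in both sexes for Ilp6 and ImpL2, female TRAP is the lowest group for Sdr, and the groups of InR overlap.

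InR, the receptor itself, had overlapping levels in the 2 fractions of each sex. It had 23.7, 26.6, 18.8 and 33.2 CPM in male TRAP, against 18.9, 34.5, 41.3 and 29.9 CPM in male total mRNA, with a log2 change of -0.29 ± 0.23 (SE). In females it had 26.2, 26.9, 32.2 and 32.5 CPM in TRAP, against 33.9, 27.3, 31.4 and 34.7 CPM in total mRNA. The female log2 change was -0.01 ± 0.13 (SE, 95% interval from -0.26 to 0.25, FDR = 0.983, edgeR exact test). This rests on the TMM scaling: with library totals as the only scaling, which moves the median of all exons by 0.41, InR was called higher in female TRAP at 0.39 (FDR = 0.0206, range over the alternatives from 0.0206 to 0.994). Between the sexes InR was not called in TRAP (-0.15 ± 0.17, FDR = 0.917) or in total mRNA (0.03 ± 0.21, FDR = 0.957, both edgeR exact test, SE). Of the 16 exon intervals of InR only the last passed the filter, and it held 84.1% of the gene's counts in female TRAP, against 82.1% in female total mRNA.

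Chico, the insulin receptor substrate, showed a small difference in its last exon. It had 28.1, 27.4, 27.0 and 20.3 CPM in male TRAP, against 21.1, 22.4, 24.0 and 19.2 CPM in male total mRNA, with a log2 change of 0.25 ± 0.18 (SE). In females it had 24.5, 25.0, 31.8 and 24.0 CPM in TRAP, against 22.2, 18.4, 20.4 and 23.8 CPM in total mRNA. The female groups did not overlap, and chico was called higher in female TRAP with a log2 change of 0.42 ± 0.14 (SE, FDR = 0.0172, edgeR exact test). Summed over all exons the call was lost, at 0.05 with FDR = 0.781, where FDR ranged from 9.5e-06 to 0.781 over the alternatives. The last exon, which asRNA:CR44995 overlaps, held 79.8% of the counts of chico in female TRAP, against 65.9% in female total mRNA, without overlap between groups (exact two-sided permutation p = 0.0286, adjusted p = 0.229 over 8 ratio tests, and p = 0.125 with the libraries paired, the smallest that 4 pairs allow). Chico did not pass the threshold between the sexes in TRAP (0.01 ± 0.15, FDR = 1) or in total mRNA (0.09 ± 0.14, FDR = 0.795, both edgeR exact test, SE).

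**Figure D4:**
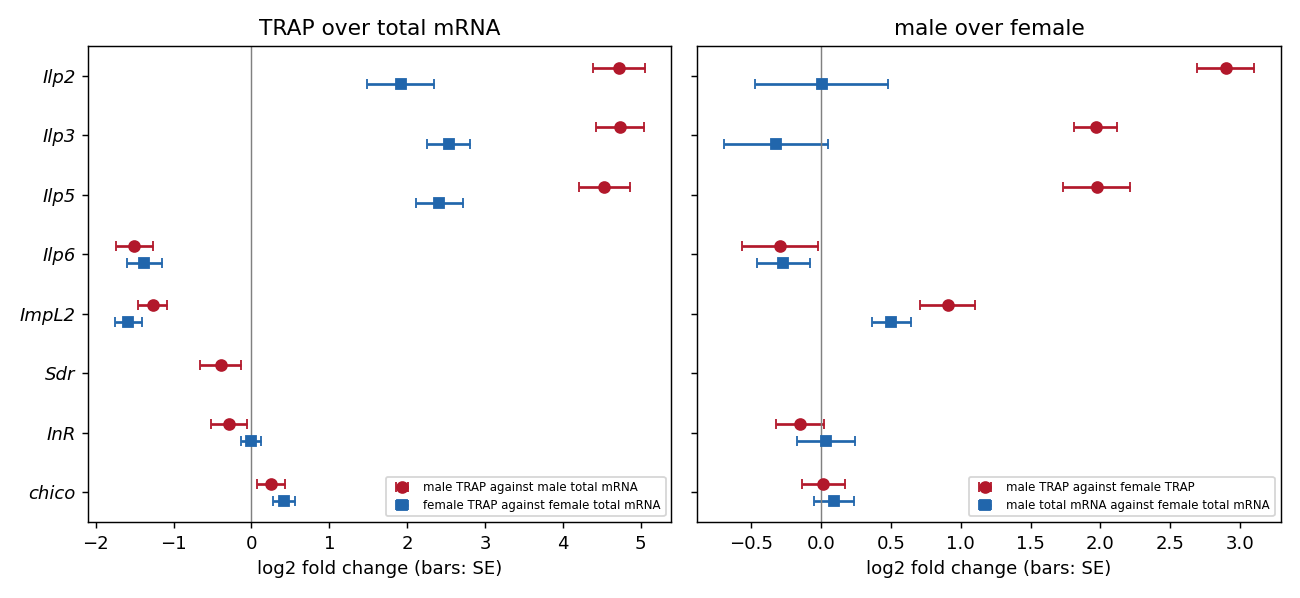
Log2 changes of the followed exon of each member that passed the filter, with SE bars, for TRAP over total mRNA (left) and for males over females (right). Ilp2, Ilp3 and Ilp5 lie between 4.53 and 4.73 in males and between 1.92 and 2.53 in females for TRAP over total mRNA. Ilp6 and ImpL2 lie below 0 in both sexes, and ImpL2 is above 0 in both comparisons of males with females.

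Ilp7 and Ilp8 were near or below the limit of detection in heads. A count of 0 in a library allowed up to 3 counts, or 0.118 to 0.195 CPM, and this floor covers counting error only. The followed exon of Ilp7 had 21 counts in all of male TRAP beside 17 in male total mRNA. In females it had 11 counts in TRAP beside 9 in total mRNA. For Ilp8 it had 4 counts in male TRAP beside 22 in male total mRNA, of which 17 were in replicate 2. In females Ilp8 had 8 counts in TRAP beside 14 in total mRNA. A difference between groups was not detectable at this depth for either peptide. Because counting did not use strand, these few counts may include reads of Parg for Ilp7 and of CG7730 for Ilp8. Of the other peptides, Ilp1 had between 13 and 33 counts in a group and Ilp4 had 1 count in all 16 libraries. The receptor Lgr3 had 506 counts in male TRAP and 544 in female TRAP over its exons, against 280 in male total mRNA and 167 in female total mRNA. These sums are raw and not scaled to library depth. In male against female TRAP the followed exon of Lgr3 had a log2 change of -0.98 ± 0.26 (SE). That exon passed the filter through 4 female TRAP libraries and only 1 male TRAP library, so no test is given.

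Per kilobase of followed exon, Ilp2 was the most abundant member in every group. In male TRAP it reached 2844 ± 610 CPM per kb, followed by Ilp3 at 220 ± 38.7, Ilp5 at 145 ± 46.4, ImpL2 at 29.1 ± 5.72 and chico at 15.6 ± 2.18 CPM per kb (SD, n = 4). None of these neighbours overlapped. Ilp6 and InR came next in male TRAP, at 6.32 ± 1.79 and 4.51 ± 1.06 CPM per kb (SD, n = 4), and they overlapped. In male total mRNA Ilp2 was at 108 ± 49.8 CPM per kb and overlapped with ImpL2 at 70.1 ± 6.83 CPM per kb (SD, n = 4), and Ilp3 and Ilp5 came below Ilp6 and chico. Female TRAP had the order of male TRAP down to InR, with Ilp2 at 395 ± 62.1, Ilp3 at 58.2 ± 6.38 and Ilp5 at 38.1 ± 8.68 CPM per kb (SD, n = 4). ImpL2 and chico overlapped there, at 16.1 ± 3.93 and 15.98 ± 2.23 CPM per kb (SD, n = 4). In female total mRNA Ilp2 averaged 112 ± 99.6 CPM per kb and ImpL2 51.7 ± 6.60 CPM per kb (SD, n = 4), and they overlapped. These orders hold for the followed exons only and would change with other exons. The followed exon of Ilp6 has 1339 bases and averaged 8.47 CPM in male TRAP and 23.9 CPM in male total mRNA. Its coding exon of 214 bases averaged 3.20 and 9.63 CPM there. For ImpL2 an interval of 142 bases averaged 14.8 CPM in male total mRNA, beside 54.7 CPM for the followed 780 bases.

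Signalling below the receptor was followed through 22 genes of the phosphoinositide 3-kinase and TOR branches. In females 11 of 22 were called higher in TRAP, beside 52.3% of all genes, and 6 lower, beside 31.4%, and their median log2 change was 0.22, where it was 0.33 over all genes tested. In males 5 of 21 were called higher, beside 38.2% of all genes, and 6 lower, beside 30.5%, with a median of 0.09 where it was 0.14 over all genes. The shares called in females were near those of all genes. Thor, the translational repressor 4E-BP and a target of FOXO, had the largest change, with 14.7 ± 2.99 CPM in female TRAP, against 67.8 ± 12.9 CPM in female total mRNA (mean ± SD, n = 4 each), a log2 change of -2.10 ± 0.18 (SE, FDR = 3.87e-24, edgeR exact test). In males Thor averaged 8.71 ± 2.15 CPM in TRAP, against 31.8 ± 4.61 CPM in total mRNA (mean ± SD, n = 4 each). The transcription factor foxo was called lower in female TRAP, with 7.596 ± 1.92 CPM in TRAP, against 22.6 ± 1.80 CPM in total mRNA (mean ± SD, n = 4 each) and a log2 change of -1.48 ± 0.17 (SE, FDR = 1.96e-14, edgeR exact test).

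Most of the 6 other FOXO targets on the list were also lower in TRAP. In females 4 of 6 were called lower in TRAP, beside 31.4% of all genes, and 1 higher, beside 52.3%. In males 5 of 6 were called lower, beside 30.5%. The lipase genes bmm and Lip4 had the largest changes in females, with log2 changes of -1.34 ± 0.15 and -1.29 ± 0.23 (SE, FDR = 3.11e-14 and 8.07e-07, edgeR exact test). The target called higher was chrb, at 0.94 ± 0.18 (SE), named after its value was seen. Between male and female TRAP 1 of the 22 pathway genes was called, Thor, which was lower in males (-0.70, FDR = 0.129), and 1 of the 6 FOXO targets, Myc, which was lower in males as well (-0.82, FDR = 0.0334, edgeR exact test), beside 1.68% of all genes called lower. In total mRNA Thor was lower in males too, at -1.03 (FDR = 4.18e-06, edgeR exact test), and its TRAP effect was not called as different between the sexes (0.33 ± 0.28, SE, FDR = 0.674, edgeR quasi-likelihood test). Glia markers were lower in TRAP in the same libraries, and 6 of 7 tested muscle markers were called lower in each sex. The muscle marker sls was called higher in female TRAP, at 1.55 (FDR = 8.13e-05, edgeR exact test). The 8 glia markers summed to 189 to 354 CPM in male TRAP, against 702 to 775 CPM in male total mRNA, and to 151 to 238 CPM in female TRAP, against 585 to 645 CPM in female total mRNA, with none of them at 0 in any group. The part of glia and fat body RNA in these values was not tested.

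**Figure D5:**
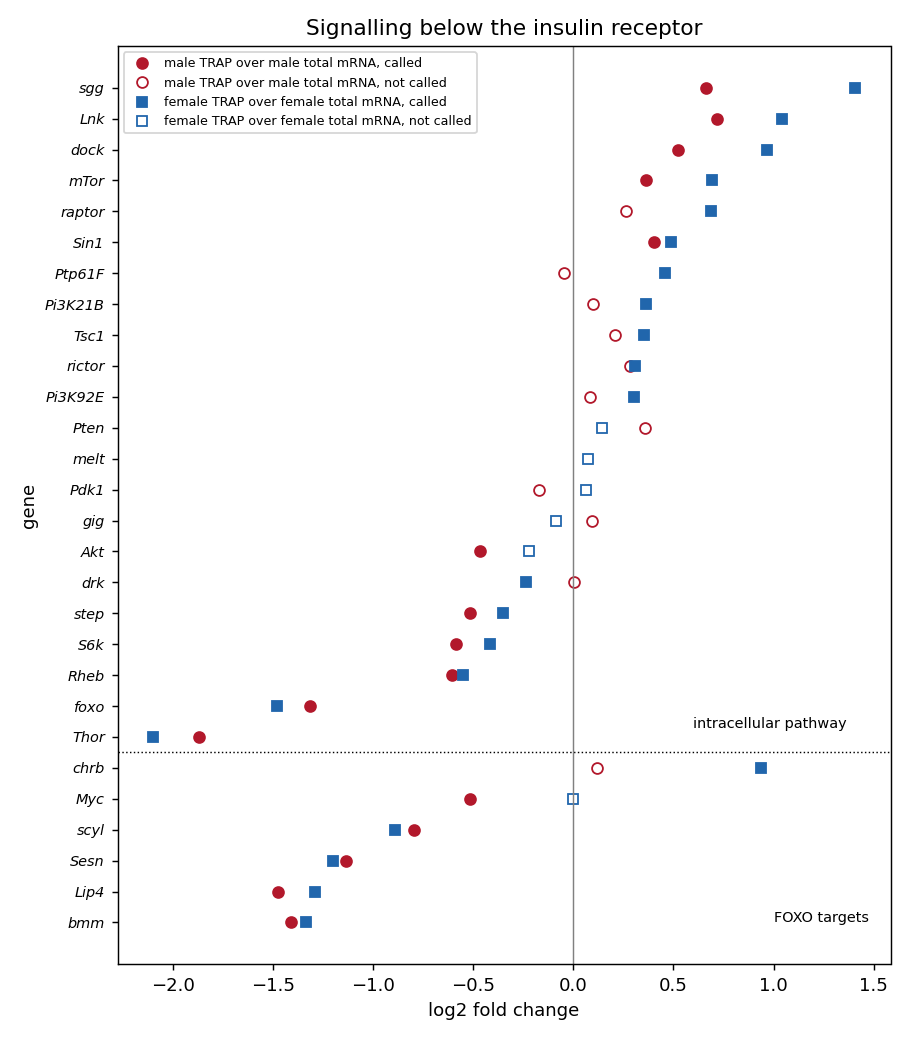
Log2 change of TRAP over total mRNA for the genes below the insulin receptor and for FOXO targets, in males (circles) and females (squares). Filled symbols passed FDR under 0.2. Thor and foxo lie farthest below 0 among the pathway genes, and 5 of the 6 FOXO targets lie at or below 0 in females.

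The other genes of the insulin-producing and neighbouring median neurosecretory cells were all called higher in TRAP in females (5 of 5, beside 52.3% of all genes) and in males (5 of 5, beside 38.2%). They are the peptide genes Dsk, Dh44 and Ms and the transcription factors dac and ey. Neuron markers were called higher as well, 10 of 10 in females with a median log2 change of 1.37 beside 1.38 for this list. In males 8 of 10 neuron markers were called higher, with a median of 0.715 beside 2.11 for this list. The female counts and medians therefore do not set these genes apart from the neuron markers. In females Ms averaged 76.9 ± 14.4 CPM in TRAP, against 24.4 ± 5.44 CPM in total mRNA (mean ± SD, n = 4 each), with a log2 change of 1.77 ± 0.19 (SE, FDR = 4.02e-16, edgeR exact test). For dac the averages were 27.0 ± 4.61 CPM in female TRAP, against 8.82 ± 1.43 CPM in female total mRNA (mean ± SD, n = 4 each), with a log2 change of 1.71 ± 0.16 (SE; FDR = 1.9e-19 in the edgeR exact test). The sexes differed in TRAP for the peptide genes of this list: Dh44 was higher in males by 2.32, Dsk by 1.87 and Ms by 0.69 on the log2 scale (FDR = 1.25e-26, 2.19e-14 and 0.116, edgeR exact test). The transcription factors dac (-0.01, FDR = 1) and ey (0.34, FDR = 0.747) were not called there. In the interaction of sex and fraction Dh44 was called at 2.0 (FDR = 0.0495, edgeR quasi-likelihood test) and the other 4 were not.

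Of 10 receptors described on the insulin-producing cells, 6 were tested in females, of which 4 were called higher in TRAP, beside 52.3% of all genes, and 1 lower, beside 31.4%. In males 5 of 7 were called higher, beside 38.2%, and 1 lower, beside 30.5%. The female share is near that of all genes, and nothing is read from these counts. The serotonin receptor 5-HT1A had 23.0 ± 7.76 CPM in female TRAP, against 5.59 ± 1.81 CPM in female total mRNA (mean ± SD, n = 4 each), with a log2 change of 2.13 ± 0.25 (SE; FDR = 2.17e-14 in the edgeR exact test). The octopamine receptor Oamb had a log2 change of 1.35 ± 0.16 (SE; FDR = 5.94e-13 in the edgeR exact test). The others called higher were the GABA receptor subunit GABA-B-R2 and the short neuropeptide F receptor sNPF-R, and the adiponectin receptor homologue AdipoR was called lower at -1.35 ± 0.13 (SE), all 3 named after their values were seen.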

How the data were processed

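RNA-seq libraries of fly heads were analysed as 4 groups of 4. Per the methods of the study and the submitters' processing notes, poly(A)-selected, non-directional libraries were aligned with STAR 2.7.2a to dm6 (SAMtools 1.2 is also listed), and featureCounts was run by the authors on unique alignments, giving counts per exon entry. Deposited are these raw counts, for 87508 exon entries. A deposited RPM table of the same libraries was not used. Sums of counts per library lay between 15353672 and 25419045, and the floor of 3 counts behind a count of 0 covers counting error only.

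Exons with a CPM above 2 in at least 60% of the 8 libraries compared were kept, scaled with TMM (factors 0.706 to 1.28), and compared by edgeR 4.0.16 in R 4.3.3 (exact test), with Benjamini-Hochberg adjustment over all exons and a threshold of FDR under 0.2, after the study. Standard errors came from the quasi-likelihood fit of edgeR, which also tested the interaction of sex and fraction over the 16 libraries. Intervals of log2 fold changes are 95% normal intervals from these SEs. For the CPM values shown, TMM factors were computed on all 16 libraries together. Scarce exons were compared by exact permutation of 4 against 4 libraries (smallest p 0.0286), and, as an alternative added after seeing the data, by sign flips of the 4 female pairs (smallest p 0.125). The fits were tested on simulated data with 200 changed exons.

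Named were the 10 members, for each gene list the 2 genes with the largest change in the female TRAP comparison among those called, the 5 genes most like the brain peptides (Pearson correlation of log2 of CPM plus 0.5), and fru and RpL10Ab. Members and lists were chosen with earlier results of these data known. As alternatives, results were recomputed with DESeq2 1.42.0, the quasi-likelihood test, RLE factors, library totals only, no filter, a filter required in all 8 libraries, FDR under 0.05, the replicate number as a block, sums per gene and leaving out each library. Same-numbered TRAP and total mRNA libraries deviated together in females (correlations 0.466, 0.248, 0.574 and 0.392). Female libraries of different number gave -0.481 to 0.392, so the pairing is not certain. The main fits did not pair the libraries, and pairing by number was used only in the replicate block and the sign flips. The male pairs gave -0.016, 0.099 and 0.226 and were not treated as paired. The study describes its TRAP replicates as biological, without saying whether they came from separate cultures of flies. The p-values measure the spread between these libraries, in which technical spread may take part. Gene positions and overlaps came from a BDGP6 annotation of the same build.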

Additional observations from a re-analysis of the deposited data

Results flagged for a closer look

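Among 40 sets of 4 libraries (10 members in 4 groups), 7 held a library far from the other 3, where chance alone gives about 1 in 20 such sets. Ilp2 at 114.9 CPM and Ilp3 at 9.88 CPM in female total mRNA were the highest libraries of their group, both in replicate 5. Ilp6 in female TRAP had its lowest value, 5.43 CPM, in replicate 2. For chico the lowest male TRAP library was replicate 5 at 20.3 CPM and the highest female TRAP library was replicate 4 at 31.8 CPM. Ilp8 had highest libraries of 0.139 CPM in male TRAP and 0.435 CPM in female total mRNA, both from fewer than 10 counts.

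The TRAP effect differed between the sexes for the brain peptides in the fit of the interaction, with male minus female log2 fold changes of 2.89 for Ilp2, 2.30 for Ilp3 and 2.21 for Ilp5. These genes were chosen on the male part of this contrast, so the values are a description.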

How the results depend on the processing

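Of the counts of members called, 85 of 96 values from leaving out a library and 81 of 86 under other settings stayed within 1.5 times the reported count. In male against female total mRNA, 2 members instead of 1 were called higher with library totals only (chico joined at 0.38), with the replicate number as a block (Ilp2 joined at 1.02) and without female total mRNA replicate 5, and 1 instead of 0 was called lower with sums per gene (Ilp6 at -0.33). The interaction called 1 member instead of 3 at FDR under 0.05 and with DESeq2. Leaving out a library gave 2 to 4 members called lower in male TRAP against male total mRNA (4 without male TRAP replicate 5, which added InR and Sdr, against 2), 1 to 2 called higher and 0 to 1 called lower in male against female total mRNA (1 lower without male total mRNA replicate 3), and 1 to 3 called higher in the interaction. The cause of these shifts was not tested.

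For single genes, InR turned to 0.39 in female TRAP with library totals only, a scaling that moves the median of all exons by 0.29 in males, 0.41 in females, 0.29 in male against female total mRNA and -0.22 in the interaction. Apart from Ilp2 above and, in males, chico (0.42) and Sdr (-0.50), which it added, the replicate block changed no call of a member: with it the female log2 fold changes of TRAP over total mRNA were 2.26 for Ilp2, 2.62 for Ilp3, -1.42 for Ilp6, -1.60 for ImpL2 and 0.42 for chico. Numbers did not pair the sexes (same-number correlations from -0.149 to 0.206 in TRAP and -0.274 to 0.05 in total mRNA). In 44 of 624 values of single genes the sign changed without a call in either fit. Over all genes, male against female TRAP gave 101 higher and 142 lower calls, 56 and 54 with the quasi-likelihood test, 62 and 68 at FDR under 0.05, 262 and 370 with no filter, 155 and 110 with library totals only and 213 and 206 with sums per gene. Male against female total mRNA gave 1133 and 910, 4903 and 472 with library totals only, 1519 and 1613 with sums per gene and 358 and 548 at FDR under 0.05. The interaction gave 7 and 4, 19 and 1214 with library totals only, 18 and 80 with DESeq2, 10 and 30 with no filter, 15 and 13 with the block, 39 and 32 with sums per gene and 4 and 2 at FDR under 0.05. TRAP over total mRNA gave 3268 and 2610 in males and 4332 and 2603 in females, and with library totals only 4703 and 2069 in males and 5357 and 1958 in females. Pairing the female libraries in the exact permutation tests, chosen after seeing the data, moved Sdr and the last-exon share of chico to p = 0.125, the smallest that 4 pairs allow. Depth limits Ilp7, Ilp8 and Sdr.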
